A study of Rattus norvegicus with 70 samples.

Results

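The zinc finger genes described here are those that the tables of rat liver methylation name Zfp or Znf followed by a digit, with Znf597 left out. They filled 175 of the 17174 regions measured, under 169 gene symbols on 21 chromosomes. Of these regions 121 carried a Zfp name and 54 a Znf name, and they lay at 174 distinct places because both transcripts of Zfp68 shared their coordinates.

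Zinc finger proteins of the C2H2 kind read DNA through tandem fingers in which a zinc ion holds a small fold together. Many of them carry a KRAB domain, which recruits the corepressor Trim28 and with it histone methyltransferases, heterochromatin proteins and DNA methyltransferases. Such genes lie in clusters of related copies that arose by tandem duplication, and a few of their products keep methylation at imprinted loci through development. The names Zfp and Znf follow nomenclature and not a single fold, so the set also holds the CCCH-type RNA-binding proteins of the Zfp36 family.

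The study put outbred rats (strain Crj:CD(SD)IGS) through initiation and then promotion of liver tumours. Initiators were acetaminophen (1000 mg/kg), methapyrilene (100 mg/kg), thioacetamide (45 mg/kg) and 2 doses of diethylnitrosamine, called DEN here (3 and 30 mg/kg), each followed after a withdrawal by phenobarbital at 500 ppm in the drinking water. The promoted control had 0.5% methylcellulose and then phenobarbital, and the water control had 0.5% methylcellulose and then water. Each of these 7 conditions was sampled in 5 livers at terminal euthanasia, after 6 weeks of promotion, and in 5 at partial hepatectomy, after 1 week, which gives 14 groups of 5 and 70 libraries. All rats underwent partial hepatectomy, so a terminal liver was one that had regrown. The higher dose of DEN was given for a shorter time than the other agents because of body weight loss. DNA was of whole liver, so a change in the methylation of a cell type and a change in its share of the tissue cannot be told apart. The labels do not say whether both times came from the same rats.

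Methylated fragments were captured with a methyl-binding protein and sequenced, and each region received 1 deposited signal value per library. Every region spanned 5625 bp with the transcript start 4500 bp inside its upstream edge, so levels of different genes are levels over equal lengths. They are not levels over equal numbers of CpGs, and the CpGs of whole regions were not counted here. A difference in level between genes is therefore not shown to be a difference in the share of CpGs methylated. A single read was worth 0.883 to 1.19 units of signal, and 0.01 stood for regions in which a library had none. The zinc finger regions held 9438 to 18054 reads per library, or 0.983% to 1.07% of the reads in all regions, where they made up 1.02% of the regions. In 9 libraries reads were spread more evenly, with 0.611% to 0.932% of all regions lacking a read against 1.60% to 5.39% in the other 61. There were 5 such libraries at terminal euthanasia and 4 at hepatectomy. In terminal livers these were replicate 5 of the promoted control, replicate 4 of thioacetamide and replicate 3 with DEN 30 mg/kg, methapyrilene and acetaminophen. At hepatectomy they were replicates 3 and 4 with DEN 30 mg/kg and replicate 5 of the water control and of the acetaminophen group. The promoted control at hepatectomy and the DEN 3 mg/kg groups at both times held none. Another set stood apart in its scaling. The total by which the authors scaled a library could be read from the size of 1 read, and the 10 libraries numbered 61 to 70 carried the totals of libraries 1 to 10, while no total was shared among the other 60. Their reads in regions came to 2.38% to 3.68% of that total, against 2.01% to 3.11% in the others, and their median signals over all regions were 56 to 70.6, against 44.8 to 56.6. They are replicate 5 of each initiator group at both times and are absent from both controls, so the signal of initiator groups holds 1 such library in 5. Results were also computed without them, an alternative chosen after seeing the data, and edgeR, DESeq2 and quantile normalization do not use the deposited totals.

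Promoter sequences show how differently built the starts of these genes are. Of the 175 regions 173 were matched to a RefSeq gene and 140 to a RefSeq promoter, 250 bases before and 50 after the start in build GRCr8, which need not be the start used in the tables. RefSeq now lists 12 of the genes under names that are not Zfp or Znf with a digit, among them Zfp161 as Zbtb14, Zfp238 as Zbtb18, Zfp278 as Patz1 and Zfp167 as Zkscan7. The 6 promoters below belong to members with high signal and few CpGs (Zfp161, Zfp46), high signal and many CpGs (Znf644), low signal and many CpGs (Zfp36), the imprinting regulator Zfp57, and Znf503, whose signal varied widely between libraries. CpG dinucleotides are in capitals.
Zfp161, GRCr8 chr9:116779850-116780149, plus strand: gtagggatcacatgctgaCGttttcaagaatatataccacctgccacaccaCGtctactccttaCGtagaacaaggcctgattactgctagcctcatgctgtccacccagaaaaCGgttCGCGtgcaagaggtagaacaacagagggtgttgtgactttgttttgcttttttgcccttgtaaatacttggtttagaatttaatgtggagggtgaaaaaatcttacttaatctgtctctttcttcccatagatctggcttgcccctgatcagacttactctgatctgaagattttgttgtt
Zfp46, GRCr8 chr5:153802637-153802936, plus strand: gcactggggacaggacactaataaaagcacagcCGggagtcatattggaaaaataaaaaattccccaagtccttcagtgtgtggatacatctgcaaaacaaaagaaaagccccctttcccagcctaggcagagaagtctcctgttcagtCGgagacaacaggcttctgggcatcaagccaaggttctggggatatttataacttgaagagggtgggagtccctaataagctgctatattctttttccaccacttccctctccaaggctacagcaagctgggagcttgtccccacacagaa
Znf644, GRCr8 chr14:3249934-3250233, plus strand: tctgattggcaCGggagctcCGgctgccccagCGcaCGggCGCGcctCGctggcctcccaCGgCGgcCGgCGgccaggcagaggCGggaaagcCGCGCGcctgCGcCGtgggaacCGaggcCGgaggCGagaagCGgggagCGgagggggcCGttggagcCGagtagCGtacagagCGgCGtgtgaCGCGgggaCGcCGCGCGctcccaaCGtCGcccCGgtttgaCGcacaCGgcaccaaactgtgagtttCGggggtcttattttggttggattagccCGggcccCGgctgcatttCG
Zfp36, GRCr8 chr1:92799059-92799358, minus strand: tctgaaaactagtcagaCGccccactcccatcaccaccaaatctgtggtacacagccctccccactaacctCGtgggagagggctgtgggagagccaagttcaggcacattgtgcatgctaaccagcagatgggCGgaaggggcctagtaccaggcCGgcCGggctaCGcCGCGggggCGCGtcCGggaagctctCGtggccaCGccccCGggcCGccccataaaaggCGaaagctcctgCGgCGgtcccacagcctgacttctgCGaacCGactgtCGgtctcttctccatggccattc
Zfp57, GRCr8 chr20:1534869-1535168, minus strand: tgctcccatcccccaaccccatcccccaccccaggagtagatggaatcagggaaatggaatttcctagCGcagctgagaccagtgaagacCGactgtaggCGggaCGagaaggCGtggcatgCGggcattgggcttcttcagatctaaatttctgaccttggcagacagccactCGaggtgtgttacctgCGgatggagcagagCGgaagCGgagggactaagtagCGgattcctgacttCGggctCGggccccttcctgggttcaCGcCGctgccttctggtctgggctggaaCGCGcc
Znf503, GRCr8 chr15:2362200-2362499, plus strand: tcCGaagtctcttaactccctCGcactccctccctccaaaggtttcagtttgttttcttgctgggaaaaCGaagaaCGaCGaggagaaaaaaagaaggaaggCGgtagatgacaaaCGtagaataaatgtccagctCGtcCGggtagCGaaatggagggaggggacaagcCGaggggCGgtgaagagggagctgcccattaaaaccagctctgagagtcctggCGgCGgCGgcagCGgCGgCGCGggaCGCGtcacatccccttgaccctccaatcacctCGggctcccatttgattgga

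These stretches held 6 CpGs in Zfp161, 2 in Zfp46, 42 in Znf644, 21 in Zfp36, 17 in Zfp57 and 22 in Znf503. Across the 134 zinc finger genes with a promoter the median was 18 CpGs, against 16 over the 12924 genes of all regions with one. CpG-poor starts, with fewer than 10 CpGs, made up 17.9% of the zinc finger genes and 36.5% of all genes. Starts with 10 to 19 CpGs made up 38.1% and 22.6%, in the same order. The hexamer TGCCGC, which mouse Zfp57 binds when it is methylated, occurred on either strand in 27 of the 134 promoters (20.1%) and in 2101 of the 12924 (16.3%).

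The CpG count at the start had almost no correlation with the signal of the zinc finger regions. Pearson's r between the CpG count and the log2 of mean signal was -0.00075 over 134 zinc finger genes and 0.11 over 12924 genes, a description across genes that share libraries and base composition. The 24 members with fewer than 10 CpGs had a median signal of 81.2, beside 49 over all genes of that class, and ranged between 2.93 and 633. The 51 with 10 to 19 had a median of 47, beside 59.6. The 59 with 20 or more had a median of 42.4, beside 52.4, and ranged between 1.77 and 441.

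**Figure D1:**
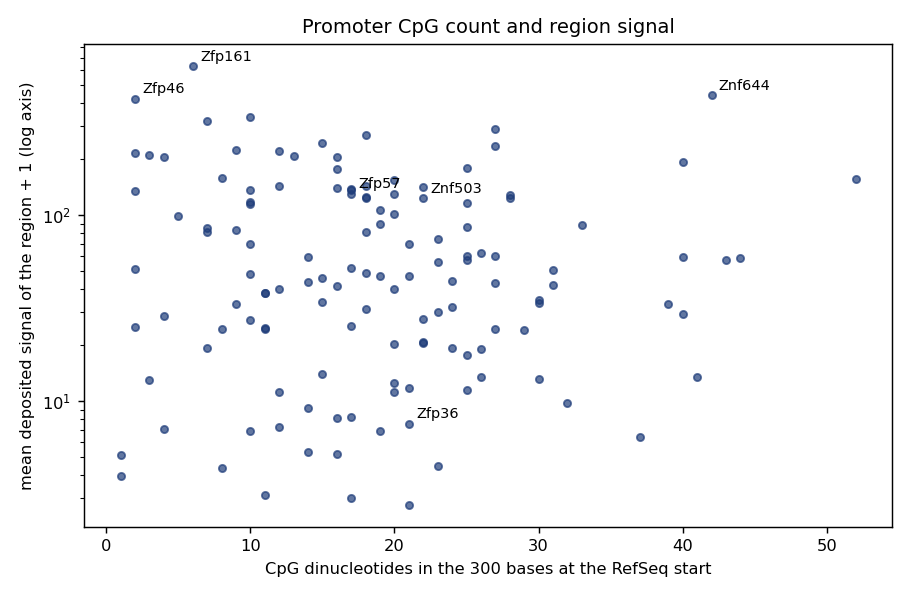
Mean deposited signal over 70 libraries (plus 1, log axis) against the number of CpG dinucleotides in the 300 bases at the RefSeq start, 1 point per zinc finger gene (134 genes). Zfp161 with 6 CpGs and Znf644 with 42 both lie near the top, and Zfp36 with 21 lies near the bottom.

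The level of methylated DNA over these genes covered much the same range as that over gene starts at large. The median of the mean signals was 49.8 over the 175 regions and 53.5 over all 17174 regions, and the lower and upper quartiles were 19.5 and 122 in zinc finger regions and 20.03 and 111 in all. Regions of mean signal under 10 made up 16% of the zinc finger regions and 14.2% of all, and regions over 200 made up 9.14% and 8.69%. The regions named Znf had a median of 60.3 and those named Zfp one of 46. The 85 regions of other C2H2 families, such as the Klf, Egr, Zbtb and Prdm genes, had a median of 55.5.

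Zfp161, a POZ-domain repressor of CG-rich promoters now named Zbtb14, had the highest signal of the set. Its region (chr9:108508310-108513935, plus strand) averaged 633 over 70 libraries, with a lowest value of 243 and a highest of 957, which put it at the 99.9th percentile of all regions. In terminal livers its group means lay between 585 ± 132 with methapyrilene and 679 ± 117 with DEN 3 mg/kg (SD, n = 5 each), and in hepatectomy livers between 568 ± 177 in the water control and 711 ± 109 with thioacetamide. Those groups overlapped. Next in level came Znf644 at 441, Zfp46 at 422, the KRAB-less cardiac regulator Zfp260 at 338, Zfp385b at 318, Znf516 at 288, Zfp316 at 267 and Zfp426 at 242. Zfp426 had 1 library far above its own median over 70 libraries of 239, at 556 in replicate 5 of the terminal DEN 30 mg/kg group. That value came from 525 reads in a library of numbers 61 to 70, whose median over all regions was 64.5.

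At the other end, 28 regions had a mean under 10, and 28 regions lacked any read in at least 1 library. Znf282 was lowest at 1.77 and had no read in 34 of 70 libraries. Zfp398 followed at 2.01, Zfp317 at 2.13, a copy named Zfp347_dup1 at 2.60, Zfp280d at 2.90, Znf467 at 2.93, Zfp53 at 3.23 and Zfp192 at 3.38. These low values differed with the evenness of a library. The median over the 28 low regions was 10.04 to 16.7 in the 9 evenly covered libraries and 0.526 to 5.45 in the other 61. Those 9 were marked by their few regions without a read, so higher values in low regions follow in part from that choice. High regions moved the other way, since the median over the 16 regions above 200 was 136 to 187 in the evenly covered libraries and 214 to 368 in the others. The part of evenness in the results on single low or high members was not tested beyond leaving the evenly covered libraries out.

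**Figure D2:**
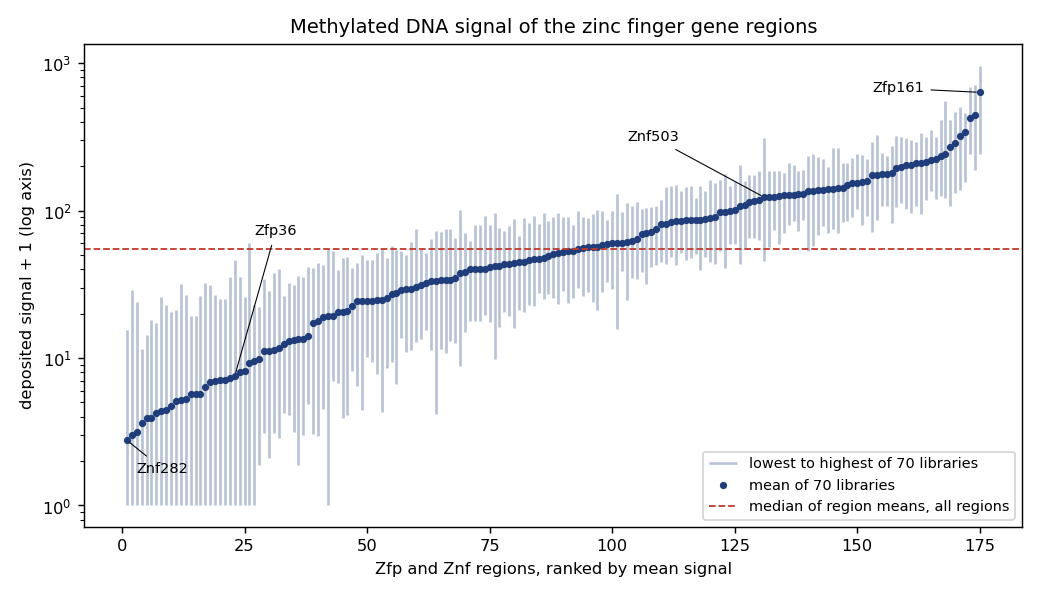
The 175 Zfp and Znf regions ranked by mean deposited signal (points, signal plus 1 on a log axis) with the lowest and highest of 70 libraries (bars); the dashed line is the median of the means of all regions. The means run between 1.77 for Znf282 and 633 for Zfp161, and the bars of the lowest regions reach the floor of no read.

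Members with known roles fell all along this range. The CCCH proteins that bind AU-rich messages and speed their decay differed among themselves, with Zfp36 (tristetraprolin) at 6.56, Zfp36l1 at 8.19 and Zfp36l2 at 57.9. Both KRAB proteins that guard imprinted methylation in mice had intermediate to high signal, Zfp57 at 129 with libraries between 71.4 and 183, and Zfp445 at 58.9 with libraries between 28.4 and 98.2. Zfp143, an activator of small nuclear RNA genes that also sits at chromatin loops, had 4.21. Zfp148 had 42.4, and Zfp281, a regulator of pluripotent cells, had 73.5. Zfp410, known in mammals for driving Chd4, had 19.5, and the ubiquitin ligase Zfp91 had 12.5.

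Regulators of development were spread over the range as well. Zfp423, a regulator of adipocyte commitment, averaged 149, Znf703 153, the neuronal repressor Zfp238 155, the KRAB repressor Zfp382 123 and Znf503 122, while Znf521, a regulator of progenitor cells, averaged 56.1. Zfp354a, first known from injured kidney, had 23.6 and its neighbour Zfp354c 39.3. Zfp42 and Zfp106 had no row in the tables and were not analysed here.

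Genes with more than 1 region showed how much the window mattered. The 3 windows of Zfp384 began within 451 bp of each other, yet the first averaged 12.4 and the others 4.69 each. Zfp385a gave 55.1, 52.6 and 32.6 in its 3 windows. Both rows of Zfp458, 18 bp apart, averaged 6.07, and both rows of Zfp68 averaged 39.3. In all 34 regions overlapped a region of another row, and in a single case the overlap joined 2 zinc finger genes, Zfp786 and Zfp398, which run in opposite directions. Zfp786 averaged 23.3 and Zfp398 2.01.

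Neighbouring genes within a cluster often differed in level. Grouping genes less than 300 kb apart gave 11 clusters of 3 or more genes, of which the cluster on chromosome 1 between 79301415 and 79873215 (coordinates as in the deposited tables, for which the sources used here name no build) was the largest with 7 genes. Its members ran between 21.7 in Zfp111 and 219 in Znf575, with Zfp180 at 42.6, Zfp428 at 125, Zfp61 at 142, Zfp112 at 158 and Zfp94 at 208. The trio Zfp566, Zfp260 and Zfp382 had 29.3, 338 and 123 within 50 kb. By contrast Zfp51, Zfp53 and Zfp52 were all low, at 5.94, 3.23 and 3.47. Reads of such related copies may be shared between them, since the sources used here do not say how the authors placed reads that match several sites.

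Between libraries, the steadiest and the most variable members were picked among those above the median level. The SD over 70 libraries of log2(signal + 1) had a median of 0.39 over all zinc finger regions and 0.39 over all regions. It was smallest in Zfp423 (0.24), Zfp112, Zfp362 and Zfp202 (0.25 each), and largest in Znf23 (0.66) and Znf503 (0.57), followed by Zfp263 (0.42), Znf521, Zfp157 and Znf18 (0.40 each).

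Znf503, a transcriptional corepressor of developing tissues, ranged between 44.5 and 312 with a median of 112. Its group means at terminal euthanasia lay between 94.9 ± 41.2 with thioacetamide and 171 ± 86.5 with acetaminophen, and at hepatectomy between 98.3 ± 25.1 with DEN 30 mg/kg and 160 ± 44.6 with methapyrilene (SD, n = 5 each). Its highest library was replicate 5 of the terminal acetaminophen group, one of libraries 61 to 70, and its lowest replicate 3 of the promoted control at hepatectomy. Znf23 ranged between 14.8 and 129 with a median of 57, and its extremes lay in replicate 2 of the terminal acetaminophen group and replicate 3 of the DEN 30 mg/kg group at hepatectomy. Zfp423 ranged between 84.5 and 210 with a median of 146, and all of its 14 group means lay between 133 and 171.

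**Figure D3:**
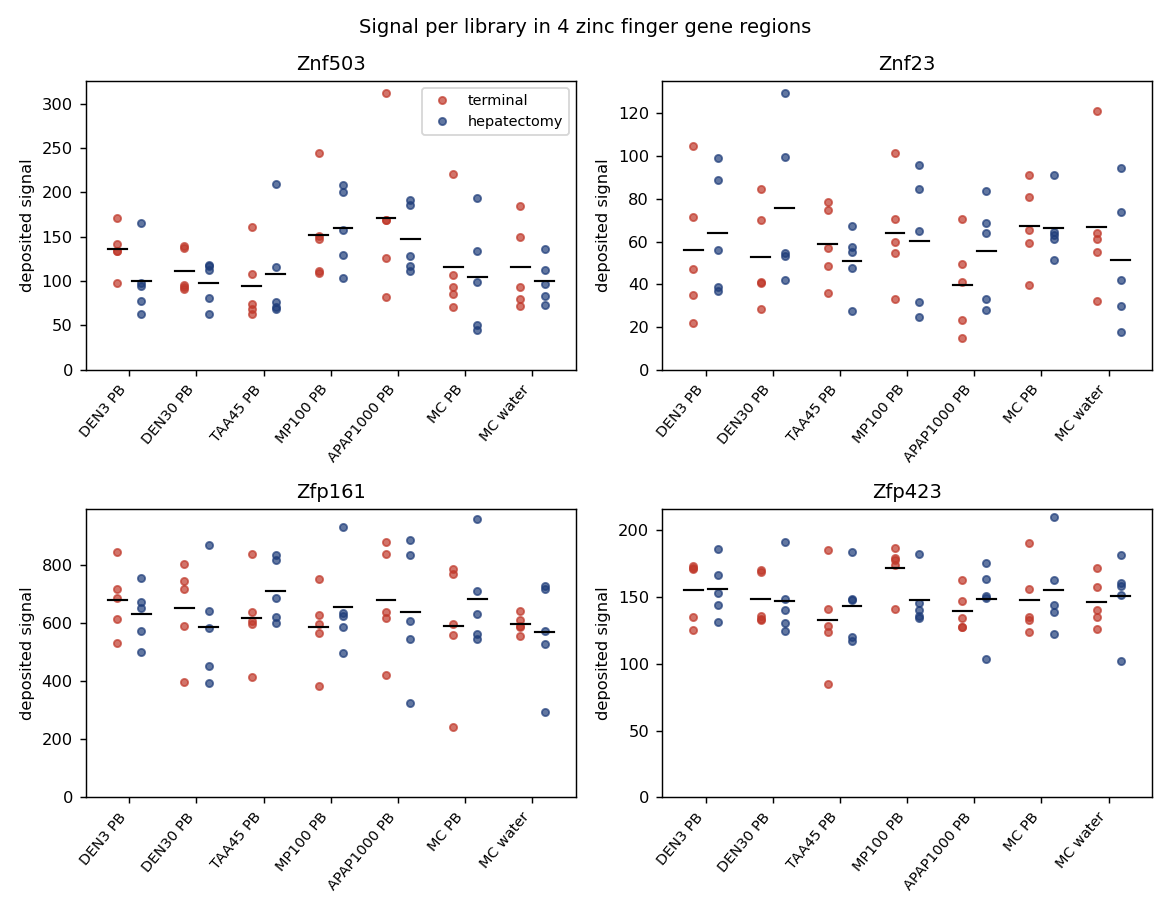
Deposited signal of each library (points) and group mean (bars) in 7 conditions, terminal livers in red to the left of hepatectomy livers in blue. Znf503 and Znf23 spread widely within groups, Zfp161 has group means of 568 to 711, and the group means of Zfp423 stay between 133 and 171.

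No zinc finger region differed past the threshold between treatments. In limma fits of log2(signal + 1) with Benjamini-Hochberg adjustment over all regions tested, 0 of 164 zinc finger regions tested in terminal livers and 0 of 159 tested in hepatectomy livers reached an adjusted p under 0.05 in any of 7 contrasts at each time. Over all regions the share called was 0% in each of these 14 contrasts (0 of 16008 terminal, 0 of 15809 at hepatectomy). An F test over the groups called 0 zinc finger regions at either time, against 0% of all regions at terminal euthanasia and 0.00633% (1 of 15809) at hepatectomy. The tools edgeR and DESeq2, run on reads recovered from the signal, called 0 zinc finger regions in each contrast too. Of all regions edgeR called 0.00625% between the DEN doses in terminal livers and 0.00633% for DEN 30 mg/kg at hepatectomy, where DESeq2 called 0.0253%. In the tests over all groups edgeR (F test) called 0.0187% and DESeq2 (likelihood ratio test) 0.00625% of all regions in terminal livers. At hepatectomy they called 0.019% and 0.0316%, in the same order. At an unadjusted p under 0.05 that limma F test gave 7 of 164 zinc finger regions beside 2.55% of all regions in terminal livers and 2 of 159 beside 4.16% at hepatectomy. The median half-width of the unadjusted 95% interval was 0.49 on the log2 scale in terminal livers and 0.46 in hepatectomy livers. Passing after adjustment over all regions asks for more than that. With 5 livers per group, differences in single regions well above that size could therefore also be missed.

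At an unadjusted p under 0.05, counts of zinc finger regions lay close to the share of all regions in most contrasts. In terminal livers DEN 3 mg/kg against the promoted control gave 14 regions, or 8.54% beside 8.51% of all regions. Of the 14, 11 were higher and 3 lower, beside 895 higher and 468 lower over all regions. DEN 30 mg/kg gave 7 (4.27% beside 3.41%), thioacetamide 0 (beside 2.06%), methapyrilene 5 (3.05% beside 2.57%) and acetaminophen 6 (3.66% beside 2.76%). DEN 30 against DEN 3 mg/kg gave 4 (2.44% beside 3.01%), and the promoted control against the water control 8 (4.88% beside 3.17%). In hepatectomy livers DEN 30 mg/kg gave 13, or 8.18% beside 7.64%, and 12 were higher, beside 913 of 1208 over all regions. That contrast sets a group with evenly covered libraries against a group without any. The promoted control against water gave 13 as well (8.18% beside 6.28%). DEN 3 mg/kg gave 4 (2.52% beside 3.17%), thioacetamide 5 (3.14% beside 4.44%), methapyrilene 6 (3.77% beside 3.67%) and acetaminophen 8 (5.03% beside 3.68%). DEN 30 against DEN 3 mg/kg gave 7 (4.40% beside 5.22%). Without libraries 61 to 70 no zinc finger region passed either, and the unadjusted counts were 2 to 10 of 164 in the terminal contrasts and 3 to 20 of 153 at hepatectomy. The 20 were for DEN 30 against DEN 3 mg/kg, or 13.1% beside 13.6% of all regions, and DEN 30 mg/kg against the promoted control then gave 16, or 10.5% beside 14.8%.

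The members' median log2 differences followed those of all regions. They lay between -0.03 and 0.11 in the 7 terminal contrasts, where all regions lay between -0.03 and 0.11, and between -0.07 and 0.10 at hepatectomy, where all regions lay between -0.03 and 0.08. Without libraries 61 to 70 the members' medians were -0.07 to 0.07 and -0.04 to 0.10, at the same times. The comparisons of initiators share the promoted control libraries, so they are not independent of each other. In the authors' deposited table, which gives a p-value per region against the promoted control, the terminal contrast of DEN 3 mg/kg had 11 of 164 zinc finger regions at p under 0.05 (6.71%) and 701 of 16008 regions in all (4.38%). In the other 5 terminal comparisons of the authors' deposited table the counts were 1 to 6, beside 2.14% to 4.26% of all regions, and at hepatectomy 3 to 7 of 159, beside 3.05% to 5.43%.

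**Figure D4:**
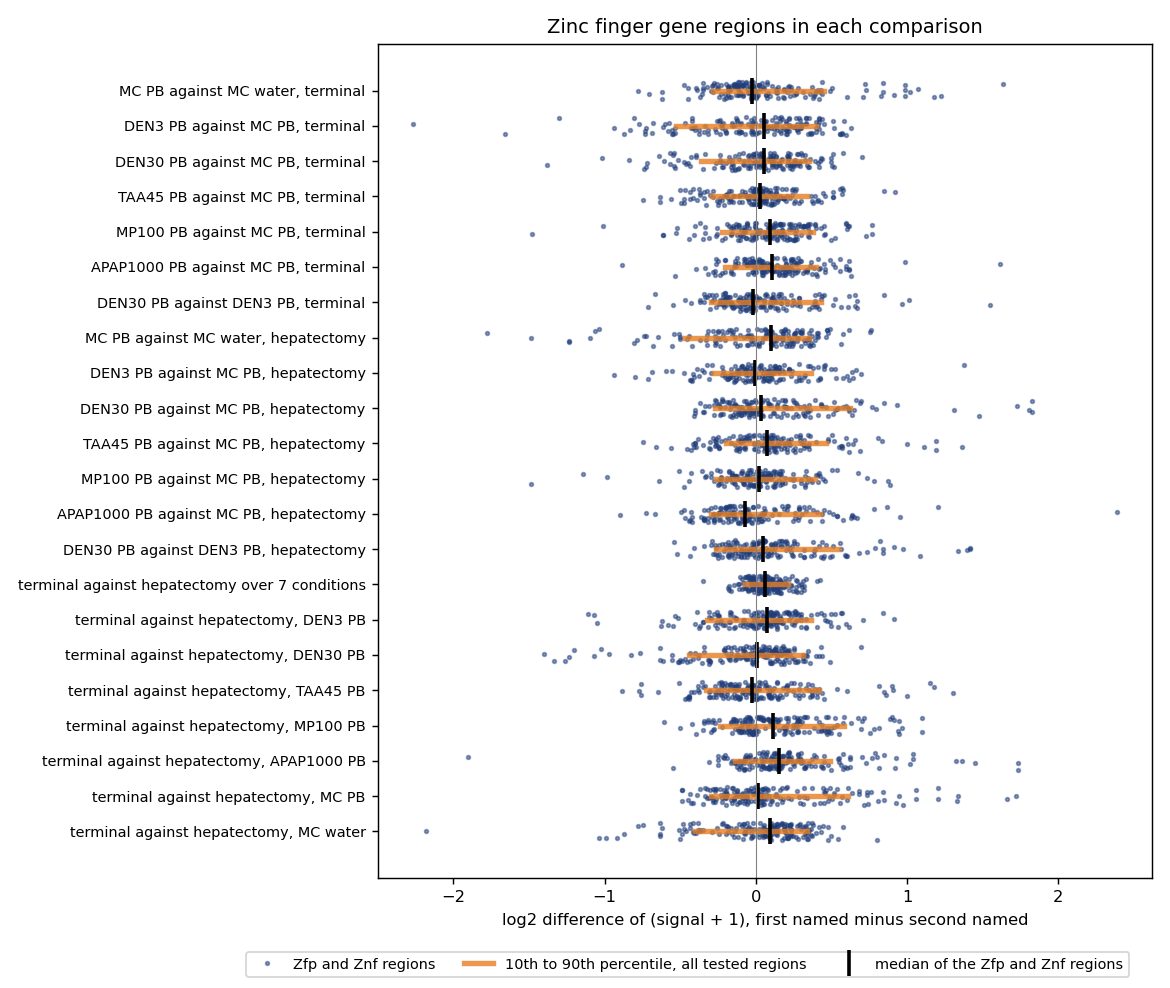
Log2 difference of (signal + 1) for each tested Zfp and Znf region (points) in 22 comparisons, with their median (black) and the 10th to 90th percentile of all tested regions (orange). The points lie around 0 in each row, and their medians run between -0.07 and 0.15.

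Groups of 5 libraries rarely failed to overlap. In terminal livers there were 2 such zinc finger regions for the promoted control against water (beside 0.6% of all regions), 1 for DEN 3 mg/kg (1.17%), and 0 for DEN 30 mg/kg (0.375%), thioacetamide (0.269%), methapyrilene (0.494%), acetaminophen (0.381%) and between the DEN doses (0.275%). At hepatectomy there were 2 for the promoted control against water (0.98%), 2 each for DEN 3 (0.677%) and DEN 30 mg/kg (1.2%), 3 for acetaminophen (0.576%), and 0 for thioacetamide (0.943%), methapyrilene (0.886%) and between the DEN doses (0.614%). Between the times there was 1 each with DEN 3 mg/kg (0.812%), thioacetamide (0.427%), acetaminophen (0.494%) and in the promoted control (0.879%), and 0 with DEN 30 mg/kg (0.238%), with methapyrilene (1.35%) and with water (0.708%).

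The member regions with the smallest p in each contrast are given next as values that did not pass. For phenobarbital against water in terminal livers the smallest p was that of Zfp167, the KRAB and SCAN-domain gene now named Zkscan7. Its 5 promoted control livers had 56.5, 44, 37.5, 25.4 and 33.2, against 24.5, 19.1, 19, 12.7 and 19.8 in the water control livers. The lowest promoted liver lay above the highest water liver, and 0.6% of all regions had groups that did not overlap in this contrast. The log2 difference was 0.99 with an adjusted p of 1 in limma. Zfp786 had 29.5 ± 8.41 with phenobarbital and 14.8 ± 6.93 with water (SD, n = 5 each), and its groups overlapped.

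For the low dose of DEN the smallest p was that of Zfp36. Terminal livers of DEN 3 mg/kg had 2.08, 9.20 and 3 values of 0.01, that is, no read, against 6.94, 2.38, 12.2, 6.92 and 28.6 in the promoted control. The highest of these, in replicate 5 of the promoted control, came from an evenly covered library, and without the evenly covered libraries the region fell below the filter and was not tested. Its log2 difference was -2.26 with an adjusted p of 0.58, and under the alternatives it lay between -2.85 and -0.74, the smallest being with a pseudocount of 10. Znf668 had 238 ± 24.7 with DEN 3 mg/kg and 161 ± 50.5 in the promoted control, a log2 difference of 0.63 and again an adjusted p of 0.58 (limma, n = 5 each); without the evenly covered libraries, one of which is in the promoted control, the difference was 0.40.

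In the remaining terminal contrasts these members had the smallest p. Zfp37 had 137 ± 42.6 with DEN 30 mg/kg and 127 ± 24 with methapyrilene, against 94.6 ± 34.9 in the promoted control. Zfp219 had 205 ± 31.8 with DEN 30 mg/kg and 149 ± 48.1 in the promoted control. With thioacetamide Zfp68 had 38.8 ± 3.82 against 27.5 ± 11.3, and Znf746 had 42.4 ± 9.86 against 29.6 ± 14.1. With methapyrilene Zfp799 had 76.02 ± 15.3 against 50.2 ± 13.8 in the promoted control. With acetaminophen Znf23 had 39.7 ± 21.9 against 67.3 ± 19.9, and Zfp358 had 152 ± 12.6 against 113 ± 27.8. Between the doses of DEN, Zfp364 had 82.3 ± 23.7 at the higher dose and 119 ± 28.4 at the lower, and Znf142 had 131 ± 19.3 and 177 ± 32.3 in the same order. Each adjusted p in this paragraph was 0.999 or more in limma, and each pair of groups overlapped. Without the evenly covered libraries the log2 difference was 0.30 and not 0.51 for Zfp219, 0.27 and not 0.50 for Zfp37 with methapyrilene, and 0.29 and not 0.46 for Zfp358.

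At hepatectomy Zfp110, which encodes a factor known to bind the neurotrophin receptor p75 in mice, had the smallest p of DEN 30 mg/kg against the promoted control and against DEN 3 mg/kg. Its livers had 31.7, 14.7, 19.2, 19.1 and 12.3 with DEN 30 mg/kg, against 4.24 to 12 in the promoted control (median 7.37). The lowest DEN 30 liver lay just above the highest control liver, and 1.2% of all regions had groups that did not overlap in this contrast. The log2 difference was 1.31 with an adjusted p of 0.59, and 1.28 without the evenly covered libraries. Against DEN 3 mg/kg, whose livers averaged 8.46 ± 5.82, it was 1.34 with an adjusted p of 0.91. At terminal euthanasia the livers of DEN 30 mg/kg averaged 8.57 ± 4.71, and the difference between the times was -1.2 with an adjusted p of 0.999. These are low signals, and with 1 read worth 0.883 to 1.19 units each value rests on few reads.

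Other hepatectomy contrasts were led by different genes. Against water, the promoted control had 157 ± 37.2 at Zfp157 where water had 107 ± 32.1, and 215 ± 63 at Zfp319 where water had 151 ± 33.6. Znf667 had 36 ± 11.8 with DEN 30 mg/kg and 21.3 ± 10.6 in the promoted control. Znf18 had 52.6 ± 8.91 with DEN 3 mg/kg and 35.7 ± 14.3 in the promoted control, and Zfp278 had 9.73 ± 4.44 and 19.4 ± 8.48. With thioacetamide the third window of Zfp385a had 36.3 ± 7.24 against 20.7 ± 7.44. Zfp819 had 57 ± 14.8 with thioacetamide and 54.3 ± 12.9 with acetaminophen, against 35.7 ± 7.0 in the promoted control. With methapyrilene Znf592 had 35.1 ± 10.4 against 19.05 ± 7.51, and Znf503 160 ± 44.6 against 104 ± 61.9. Zfp706 had 90.8 ± 24.1 with acetaminophen and 63.9 ± 12.9 in the promoted control, and Zfp251 60.9 ± 13.1 with DEN 30 and 41.8 ± 13.1 with DEN 3 mg/kg. Without the evenly covered libraries, one of which is in the water control, the log2 difference of Zfp157 was 0.37 and not 0.58. That of Znf667 with DEN 30 mg/kg, a group that holds such libraries where the promoted control holds none, was 0.56 and not 0.79. Without libraries 61 to 70 that of Zfp278 was -0.62 and not -0.94. Groups overlapped in each of these, and limma's adjusted p lay between 0.59 and 1.

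Between the times, most zinc finger regions had a higher mean in terminal than in hepatectomy livers, without passing the test, and so did regions at large. Over the 7 conditions 121 of 170 tested zinc finger regions (71.2%) were higher in terminal livers, beside 70.4% of 16385 regions, with a median log2 difference of 0.06 beside 0.05. Without libraries 61 to 70 those medians were 0.04 and 0.02. None of the 170 passed the threshold, where 0.0671% of all regions did (11 of 16385). At an unadjusted p under 0.05 there were 10, or 5.88% beside 6.59% of all. Each of the 10 was higher in terminal livers, as were 985 of 1079 over all regions. The tools edgeR and DESeq2 called 0 of the 170, and 0.104% and 0.11% of all regions (17 and 18). The median half-width of the 95% interval was 0.19 here.

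The smallest p belonged to Zfp563, named with Zfp706 and Zfp35 after their values were seen. Zfp563 averaged 41.7 ± 16.7 in terminal livers and 32.1 ± 14.1 in hepatectomy livers (SD, n = 35 each), and its difference was above 0 in each of the 7 conditions, between 0.06 and 0.93. The log2 difference over the conditions was 0.42 ± 0.27 (95% interval) with an adjusted p of 0.36 in limma. Zfp706 averaged 92.9 ± 19.2 in terminal livers and 80.8 ± 17 in hepatectomy livers, again higher in 7 of 7 conditions, with a log2 difference of 0.20 and an adjusted p of 0.49. Zfp35 averaged 48.9 ± 11.8 and 41 ± 12.7 in the same order and was higher in 5 of 7 conditions. Zfp763 and Znf703 were the other regions higher in all 7 conditions, and no region was lower in all 7.

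**Figure D5:**
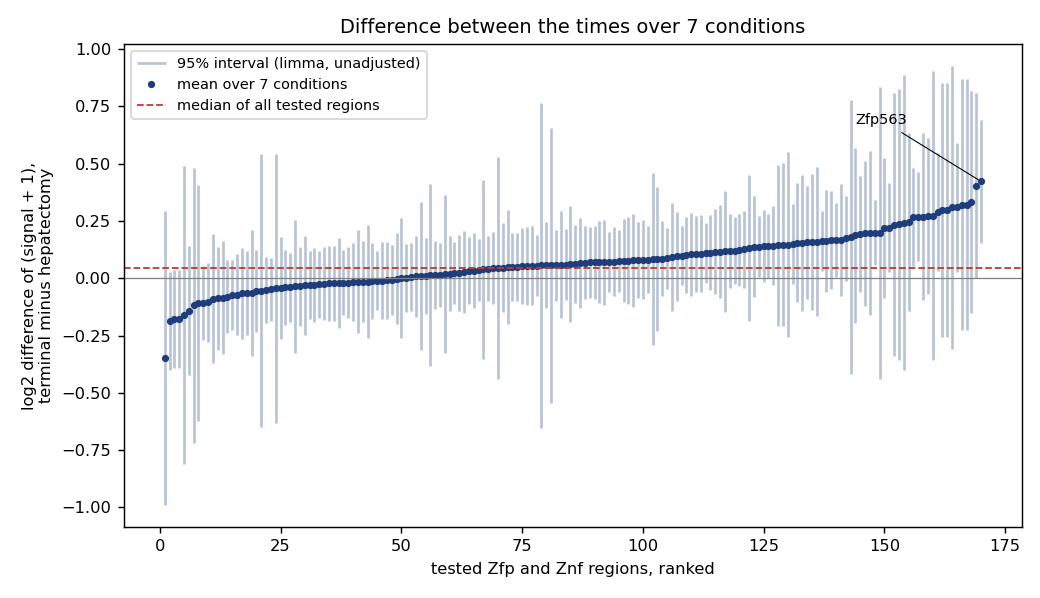
Log2 difference of (signal + 1), terminal minus hepatectomy, averaged over 7 conditions for the 170 tested Zfp and Znf regions in rank order, with 95% limma intervals (bars). Zfp563 is highest at 0.42; 121 of the 170 points lie above 0, and the dashed line is the median of all tested regions, 0.05.

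Within single conditions 0 of 170 zinc finger regions passed, against 0% of all regions in 6 conditions and 0.0061% (1 of 16385) in the promoted control. At an unadjusted p under 0.05 the counts were 2 with DEN 3 mg/kg (beside 3.39% of all regions), 2 with DEN 30 mg/kg (2.95%), 5 with thioacetamide (3.27%), 4 with methapyrilene (4.81%), 13 with acetaminophen (3.91%), 9 under phenobarbital alone (5.98%) and 7 under water (3.84%). The tools edgeR and DESeq2 called 0 zinc finger regions within single conditions, beside at most 0.0183% of all regions (3 of 16385, edgeR, DEN 30 mg/kg) and 0.0061% in DESeq2. The 13 with acetaminophen made up 7.65% of the zinc finger regions, and 12 were higher in terminal livers, beside 620 of 640 over all regions.

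In acetaminophen livers Zfp563 had 30.2, 25.6, 53.6, 52.1 and 52.2 at terminal euthanasia, against 14.3, 14.3, 13.5, 23.1 and 62.1 at hepatectomy. The last of these came from an evenly covered library, also one of libraries 61 to 70, and was above every terminal value, and without the evenly covered libraries the log2 difference was 1.21 where it had been 0.93. Znf746 had 42.2 ± 12.6 in terminal and 23.4 ± 8.13 in hepatectomy livers of that condition. In DEN 3 mg/kg livers Zfp93 had 136, 192, 132, 168 and 203 at terminal euthanasia, against 107, 117, 110, 115 and 121 at hepatectomy. Every terminal liver was above every hepatectomy liver, and 0.812% of all regions had groups that did not overlap, in either direction, in this contrast. Its adjusted p was 0.999.

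Other conditions gave the following pairs. Znf483 had 103 ± 28.4 in terminal and 66.5 ± 15.3 in hepatectomy livers of DEN 3 mg/kg, and Zfp37 had 137 ± 42.6 and 95.6 ± 20.6 with DEN 30 mg/kg. With thioacetamide Zfp278, the transcription factor Patz1, had 27.9 ± 9.44 in terminal and 12.7 ± 8.29 in hepatectomy livers, and Zfp414 had 33.2 ± 5.94 and 54.1 ± 18.7. With methapyrilene Znf509 had 57.03 ± 12.4 and 32.04 ± 14.5, and Zfp346 had 26.4 ± 8.79 and 14.4 ± 6.79. In the promoted control Znf18 had 57 ± 8.74 and 35.7 ± 14.3, and Znf667 had 41.9 ± 21.1 and 21.3 ± 10.6. In the water control Znf498 had 22.7 ± 6.07 in terminal and 40.3 ± 13 in hepatectomy livers, while Zfp57 had 145 ± 12.8 and 107 ± 35.3. Limma's adjusted p lay between 0.71 and 0.999 for these, and groups overlapped in each.

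Whether the difference between the times depended on the condition was tested directly. The F test over 6 interaction terms called 0 of 170 zinc finger regions and 0% of all regions (0 of 16385), and 2 zinc finger regions, Znf667 and Zfp786, had an unadjusted p under 0.05, beside 2.75% of all regions. Without libraries 61 to 70 there were 10 of 168, or 5.95% beside 4.63%, with 0 called. The tools edgeR (F test) and DESeq2 (likelihood ratio test) called 0 regions of any kind for these interaction terms.

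The deposited peak list, which sets DEN 30 mg/kg against phenobarbital alone, held peaks in 13 of the 175 regions. That is 7.43% of the zinc finger regions, beside 7.01% of all regions. These 14 peaks were 152 to 284 bp long, 11 were listed as higher in DEN 30 and 3 as lower, and their coordinates lie in the build of the files. Their read counts were low, with 15 to 38 reads in the set where the peak was higher and 1 to 6 in the other. The counts are the authors' own values for libraries taken in an unstated way.

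At hepatectomy Zfp57 had a peak of 169 bp (chr20:1618612-1618780) with 18 reads in DEN 30 and 1 in the other set. The list puts it at -2649 bp from the start, where it lies at -528.5 bp from the start on which the region was built. The list thus uses another start of Zfp57 than the region. A second peak of Zfp57, outside the region and annotated to its 5′ untranslated part, was listed for the time point 11w as lower in DEN 30, with 2 reads in DEN 30 and 19 in the other set. The whole region at hepatectomy had 121 ± 14.2 in DEN 30 livers and 130 ± 24.5 in promoted control livers. Zfp161 had a peak 363 bp before its start with 21 and 4 reads, while its region had 588 ± 186 and 681 ± 168. Znf18 had a pair of peaks, with 38 and 6 reads and with 23 and 5, and its region had 56.6 ± 18.5 in DEN 30 and 35.7 ± 14.3 in promoted control livers. Zfp354c had 17 and 4 reads, with a region at 45.2 ± 9.34 and 32.8 ± 2.52. The peaks of Zfp94, Zfp638, Zfp422, Znf292, Znf483 and Zfp352 were also listed as higher in DEN 30 at that time.

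The 3 peaks listed as lower in DEN 30, in Znf518a, Znf598 and Zfp238, carry the time point 11w, read here as terminal euthanasia. Their regions had higher means in DEN 30 than in promoted control livers, 96.3 ± 12.5 against 82.9 ± 11.5 in Znf518a, 33.3 ± 6.55 against 21.6 ± 10.5 in Znf598 and 162 ± 40.2 against 141 ± 38.8 in Zfp238. Of the 12 peaks whose regions were tested, 5 had the sign of the region's log2 difference. Each region covers far more DNA than its peak. For Zfp238 the list again uses another start, with its peak at 2287 bp where it lies at -160 bp from the region's own start. In the whole list 90 peaks were annotated to 53 Zfp or Znf symbols, 64 of them in introns, and 88.9% were listed as higher in DEN 30, beside 84.2% of the 36231 peaks.

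Genes that work with KRAB zinc finger proteins were looked at in the same fits. The partner list held 22 regions of 20 genes, among them the corepressor Trim28, the methyltransferase Setdb1 and the DNA methyltransferases, and 2 of its genes, Zfp57 and Zfp445, are zinc finger genes of the set. Its median signal was 81. None of its regions passed in any contrast, and at an unadjusted p under 0.05 there were 0 to 3 of 20 to 22 within a time, where all regions had 2.06% to 8.51%, and 0 to 5 of 22 between the times, the 5 being in the water control beside 3.84% of all regions. The 85 regions of other C2H2 families likewise had 0 calls, with 0 to 13 at an unadjusted p under 0.05, the 13 being in terminal DEN 3 mg/kg livers against the promoted control (13 of 83, beside 8.51% of all regions). Markers of liver cells and of white blood cells had 0 calls in limma, and their regions had median signals of 46.6 (9 hepatocyte regions) and 91.3 (15 leukocyte regions). In promoter methylation such markers say little of how many cells of a type were present, and that share was not tested.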

How the data were processed

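Signal values, p-values and peaks were used as deposited. Per the labels, methylated DNA of rat liver was enriched with a methyl-binding protein and read as 50-base reads on a SOLiD 4 sequencer. Per the file headers, the authors' region tables give 1 signal value per library and a p-value against the promoted control. The deposited signal was made of whole multiples of a step equal to 50 M divided by a scaling total of 42.1 to 56.6 M, so whole reads were recovered for 100% of values above 0.01 (tolerance 0.01), giving 0.933 to 1.80 M reads in regions per library. Libraries 61 to 70 carry the scaling totals of libraries 1 to 10, and the sources used here do not say why. Per the file headers, the authors' peak list gives read counts and an enrichment factor (ratio). Not given in the sources used here: aligner, genome build, peak caller.

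Regions with a signal of 10 or more in at least 5 libraries were tested with limma 3.58.1 (R 4.3.3) on log2(signal + 1), 1 mean per group and a variance trend, two-sided, with Benjamini-Hochberg adjustment over all regions tested at 0.05. A difference on this scale understates the change of low regions. Alternatives used edgeR 4.0.16 and DESeq2 1.42.0 on recovered reads, a pseudocount of 10, no filter, quantile normalization, library number blocks, a replicate block, leaving out libraries, 1 row per place and, chosen after seeing the data, leaving out libraries 61 to 70. The scripts were tested on simulated data. The named members were, by rule, the 2 smallest p per contrast, the 8 highest and 8 lowest levels, the most and least variable, those with several regions or a peak, and a list of known genes. Members and lists were chosen with earlier results of these data known. Genes were matched to RefSeq tables of build GRCr8, by accession, symbol or unique synonym. Groups were taken from titles and sample labels. The p-values measure the spread between livers of a group. Precision is set by 5 livers per group and by reads per region, whose median over the zinc finger regions was 37 to 63 per library; PCR copies were not removed here, as there are no molecular identifiers.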

Additional observations from a re-analysis of the deposited data

Results flagged for a closer look

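Of 77 groups of 5 livers behind the named members, 5 held a library far from the others by Dixon's test (critical value 0.71), where chance gives about 1 in 20. Zfp36 had 9.20 in replicate 3 of terminal DEN 3 mg/kg livers, with the next at 2.08. Zfp563 had 62.1 in replicate 5 of the acetaminophen group at hepatectomy, an evenly covered library and one of libraries 61 to 70, with the next at 23.1. Znf746 had 53.7 in replicate 3 of the terminal promoted control, with the next at 28.5. Znf142 had 97.5 in replicate 3 of terminal DEN 30 mg/kg livers, an evenly covered library, with the next at 133. It had 122 in replicate 1 of terminal DEN 3 mg/kg livers, with the next at 180. Both low values of Znf142 lie in the groups compared between the doses of DEN.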

How the results depend on the processing

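The count of 0 zinc finger regions past the threshold held in all 25 tests under every alternative run: a pseudocount of 10, no filter, quantile normalization, edgeR, DESeq2, library number blocks, the replicate block, 1 row per place, without the evenly covered libraries, without libraries 61 to 70 (chosen after seeing the data), and each library left out in turn (lowest and highest count 0 and 0). The smallest adjusted p of any zinc finger region under them was 0.074, with the replicate block, which called 0. Of 44 differences named in the report none changed sign. The alternatives of 16 of the 44 moved the value by over 1.5 times, 5 of them without the evenly covered libraries and 1 without libraries 61 to 70. Whether same-numbered livers of the 2 times belong together is not given by the labels. The correlation of their deviations was -0.38 to 0.68 over 35 pairs (median 0.08) and over 0.1 in 11. Of the 35 hepatectomy libraries, 13 correlated best with the terminal library of their own condition and number, among all 35 terminal libraries. In a test of that correlation 113 of 16385 regions (0.69%) but 0 of 170 zinc finger regions passed. Not every pair was over 0.1, and by that strict rule the main fits did not use the numbers as pairs. The rule cannot show that the livers came from different rats. If they came from the same rats, the main fits between the times treated paired livers as independent. The replicate block between the times did pair livers by condition and number, and gave Zfp563 the adjusted p of 0.074 (limma). Depth limits low members most, since 28 regions lacked a read in some library.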
